A study of Mus musculus with 8 samples.

Results

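The 35 genes described here encode the machinery of DNA replication and S phase: the replicative helicase and its loaders, polymerases with their clamp and clamp loader, enzymes of the lagging strand, of uracil repair and of nucleotide supply, chromatin factors of the fork, and cyclin E with one E2F repressor. They were chosen with earlier results of these data known. Their rows are those whose Ensembl ID carries one of the 35 symbols in GENCODE M21. All 35 were found among the 20781 genes of the deposited count table, and all 35 passed the filter on low counts that left 16565 genes to test. RNA had been sequenced from cultured fibro-adipogenic progenitors (FAPs), the stromal cells of muscle that form fibroblasts and adipocytes. The 8 libraries fell into FAPs given melatonin for 24 h (4 replicates) and FAPs given vehicle for 24 h (4 replicates). Both groups were grown from hindlimb muscles (tibialis anterior, gastrocnemius, quadriceps) of uninjured, wild-type males, spent 48 h in culture before treatment, and carry the strain names C57BL/6 and C57BL/6J in different labels. The labels give no melatonin dose and no age, and their extraction text names longissimus dorsi, a muscle not in the list above. The replicates are called biological, without a statement on whether each came from its own animals.

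A cell copies its genome once per cycle. In G1 the origin recognition complex, CDC6 and CDT1 load the ring of MCM2 to MCM7 onto origins. CDC45 and the GINS complex then turn that ring into a moving helicase, and polymerases held by the PCNA ring copy both strands behind it. Most of these genes are textbook targets of E2F transcription factors, which are held back by the retinoblastoma protein until cyclin D and cyclin E kinases release them, so their mRNAs rise together as cells enter S phase. In progenitor cultures they are a common readout of cycling cells.

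Most replication genes had higher scaled levels in the RNA of melatonin-treated FAP cultures, by a modest amount. With melatonin 20 of the 35 members rose and 0 fell, at an adjusted p under 0.05 from the edgeR quasi-likelihood test across all genes (Benjamini-Hochberg). In bulk RNA, a larger share of cells in S phase and more RNA in each such cell cannot be told apart. The 20 are 57.1% of the members, beside a background of 18.1% of all 16565 tested genes called higher, 18.5% called lower and 36.5% called either way. No member fell by DESeq2 or limma-voom either, and none at an unadjusted edgeR p under 0.05, where 24 were higher. The median log2 fold change (melatonin over vehicle) was 0.34 over the 35 members, a 1.26-fold difference, and 0.01 over all tested genes. The fitted difference was above 0 for 34 of the 35, against 51.3% of tested genes. The 4 melatonin libraries all lay above the 4 vehicle libraries for 23 members, beside 18.5% of tested genes, and all below for 0 members, beside 19.2%. Levels below are CPM, the usual counts scaled to library size, here with TMM factors, and changes are log2 fold changes ± standard error.

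Most rises were small. Among the 20 called members, 1 rose by a log2 fold change of at least 1, 9 by 0.5 to 1 and 10 by less than 0.5. Adding the CPM of all 35 members gave 859.7, 827, 854 and 957 in melatonin replicates 1 to 4, against 673, 706, 681 and 706 in vehicle replicates 1 to 4. The sums of the groups did not overlap. As a share of raw counts, the members took 0.0868% to 0.1% of the melatonin libraries and 0.0624% to 0.0671% of the vehicle libraries. Melatonin replicate 4 was the highest of its group for 20 of the 35 members, and melatonin replicate 2 the lowest for 14. Without melatonin replicate 4, 21 members rose and 0 fell, with a median of 0.35.

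**Figure D1:**
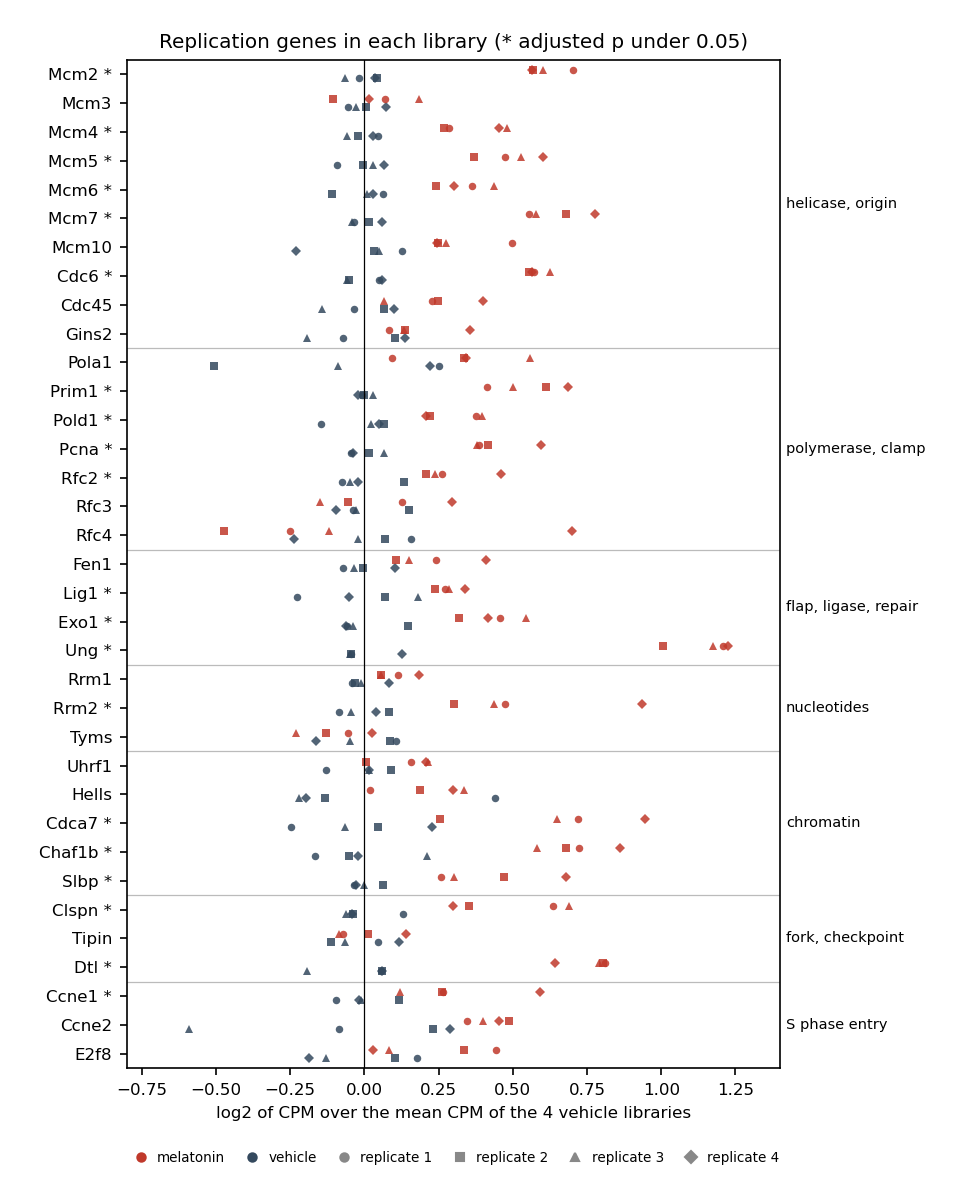
Each row is 1 of the 35 replication genes, grouped by role. The horizontal axis is the log2 of its CPM in each library over the mean of the 4 vehicle libraries, with melatonin (red) drawn above vehicle (dark) and a symbol for each replicate number. The red points of 23 genes lie wholly to the right of the dark ones, and those of Ung lie farthest out.

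Because many members are known E2F targets, their promoters were searched for E2F sites. RefSeq promoter windows on GRCm38.p6 (300 bases, 250 before to 50 after a start) were matched to 29 of the 35 members, and Mcm4, Gins2, Exo1, Tipin, Ccne2 and Rfc2 were not searched. Each window was searched on both strands for the E2F consensus as TTTCCCGC, TTTCGCGC, TTTGCCGC or TTTGGCGC. At least 1 match lay in the windows of 14 of the 29 members (48.3%), against 505 of 11559 tested genes with a window (4.37%). In related lists described below, the share was 36% of 25 G1/S regulators, 29.4% of 34 other replication genes and 18.2% of 11 chromatin assembly genes. It was 16.7% of 18 repair genes, 4.55% of 22 G2 and M phase genes and 0% of 16 nucleotide supply genes. Of all 32851 windows, 744 held a match. The CCAAT box, searched as CCAAT, was present in 62.1% of the 29 members and 42.3% of the tested genes, and the GC box, searched as GGGCGG, in 72.4% and 66.2%. The element TTTGAA, known from promoters of mitotic genes, was present in 13.8% of the 29 members and 14.5% of tested genes, and in 72.7% of 22 G2 and M phase genes. Of the 20 E2F matches, 4 overlapped another E2F match and 1 overlapped a CCAAT box. A match is a run of letters and no proof of binding.

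**Figure D2:**
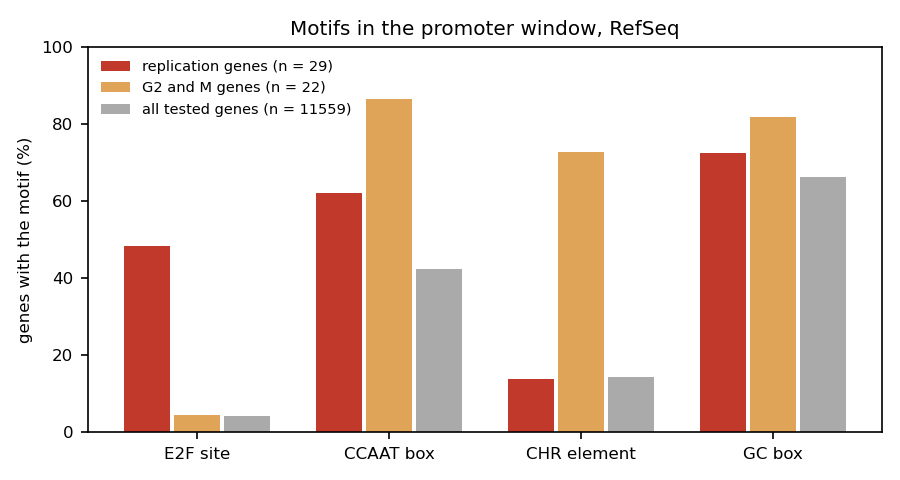
Share of genes (percent, vertical axis) whose RefSeq promoter window holds each motif on either strand, for the 29 replication genes with a window, 22 G2 and M phase genes and 11559 tested genes. The E2F bar stands at 48.3% for the replication genes and 4.37% for all tested genes, while the TTTGAA element (CHR element) stands at 13.8% and 14.5%.

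A pair of promoters shows the range among members that rose. The 250 bases before the start of Mcm6 (chr1:128359706-128359955 of GRCm38.p6, minus strand) hold 3 E2F matches, 2 of them overlapping on opposite strands, and are printed 5′ to 3′ with those letters in capitals. The same stretch of Chaf1b (chr16:93883651-93883900, plus strand), a member with one of the larger rises, holds none of the 4 E2F spellings but 5 GC boxes.
Mcm6: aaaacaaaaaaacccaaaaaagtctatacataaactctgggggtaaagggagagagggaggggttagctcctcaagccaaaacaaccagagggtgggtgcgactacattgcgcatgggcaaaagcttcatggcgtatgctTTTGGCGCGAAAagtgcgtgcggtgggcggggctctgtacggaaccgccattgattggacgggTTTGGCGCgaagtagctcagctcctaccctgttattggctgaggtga
Chaf1b: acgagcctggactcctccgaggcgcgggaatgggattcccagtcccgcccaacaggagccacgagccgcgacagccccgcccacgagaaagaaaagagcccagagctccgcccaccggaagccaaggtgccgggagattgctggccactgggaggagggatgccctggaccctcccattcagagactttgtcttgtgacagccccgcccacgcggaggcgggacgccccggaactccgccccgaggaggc

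Matches before a RefSeq start in 9 other members are shown so that the site and its neighbouring bases can be compared. RefSeq starts can differ from the GENCODE gene spans, and the stretches of Mcm7, Cdc6, Rfc3, Uhrf1 and Hells lie inside those spans. At most 30 bases are printed for each stretch, with the matched letters in capitals. The first 5 belong to members that rose and the last 4 to members that did not pass the test. The stretches lie at chr8:75109347-75109376 (plus strand) for Mcm5, chr5:138172030-138172059 (minus strand) for Mcm7, chr11:98908002-98908031 (plus strand) for Cdc6, chr2:72476137-72476166 (plus strand) for Cdca7, chr1:191575545-191575563 (minus strand) for Dtl, chrX:93632275-93632304 (minus strand) for Pola1, chr5:151651209-151651229 (minus strand) for Rfc3, chr17:56304117-56304146 (plus strand) for Uhrf1 and chr19:38930917-38930946 (plus strand) for Hells. Those of Mcm5 span 2 overlapping matches, and GCGGGAAA and GCGCCAAA are matches read on the other strand.
Mcm5: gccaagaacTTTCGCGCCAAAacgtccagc
Mcm7: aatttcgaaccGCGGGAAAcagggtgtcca
Cdc6: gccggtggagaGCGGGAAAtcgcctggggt
Cdca7: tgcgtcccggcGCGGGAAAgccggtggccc
Dtl: cgtgacgtcagTTTGGCGC
Pola1: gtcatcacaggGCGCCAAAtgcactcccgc
Rfc3: acgtcgcacgcTTTCGCGCtc
Uhrf1: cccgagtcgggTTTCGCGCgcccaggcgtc
Hells: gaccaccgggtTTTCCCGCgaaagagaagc

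A match was present in 9 of 17 members that rose and have a window, and in 5 of 12 that did not pass.

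The helicase and its loaders gave 6 rises among 10 genes. Mcm2 (ENSMUSG00000002870, chromosome 6, 88883474 to 88898780 on the minus strand of GRCm38), a subunit of the MCM2 to MCM7 ring, was at 48.0, 43.7, 44.7 and 43.6 CPM in melatonin replicates 1 to 4, against 29.1, 30.4, 28.2 and 30.2 CPM in vehicle replicates 1 to 4. The lowest melatonin library was well above the highest vehicle library, and Mcm2 rose by 0.61 ± 0.065 (edgeR adjusted p = 7.1e-05), the smallest p of the 35. Mcm7 (ENSMUSG00000029730, chromosome 5, 138164583 to 138172422 on the minus strand), another ring subunit, was at 49.9, 54.3, 50.6 and 58.1 CPM in melatonin replicates 1 to 4, against 33.1, 34.3, 33.0 and 35.4 CPM in vehicle replicates 1 to 4. It rose by 0.65 ± 0.070 (edgeR adjusted p = 8.1e-05), again with no overlap. Mcm4, Mcm5 and Mcm6, the last with the promoter printed above, rose by 0.38 ± 0.075, 0.50 ± 0.075 and 0.34 ± 0.073.

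The ring subunit that did not pass was Mcm3 (ENSMUSG00000041859, chromosome 1, 20802968 to 20820312 on the minus strand). It was at 32.2, 28.5, 34.9 and 31.0 CPM in melatonin replicates 1 to 4, against 29.5, 30.8, 30.1 and 32.2 CPM in vehicle replicates 1 to 4. Its groups overlapped, and its change was 0.05 ± 0.078 (edgeR adjusted p = 0.69). Its partners are set against it as ratios of CPM in each library, a description with no test, since Mcm3 was picked after its values were seen and is the denominator of every ratio. The ratio of Mcm7 to Mcm3 was 1.70 ± 0.229 with melatonin and 1.11 ± 0.0128 with vehicle (SD, n = 4 each). All 5 ratios to Mcm3, those of Mcm2, Mcm4, Mcm5, Mcm6 and Mcm7, were higher in every melatonin library than in every vehicle library. Their log2 differences ran from 0.295 (Mcm6) to 0.606 (Mcm7).

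Levels of the 6 ring subunits can be set side by side per length of exon. Mcm2 was the lowest in all 8 libraries, at 6.47 ± 0.294 CPM per kb with melatonin and 4.24 ± 0.147 CPM per kb with vehicle (SD, n = 4). Mcm7 was the highest in each melatonin library (12.0 ± 0.853 CPM per kb), while Mcm3 was the highest in each vehicle library (8.17 ± 0.313 CPM per kb). The highest subunit stood 1.63 to 2.09 times above the lowest in melatonin libraries and 1.88 to 1.98 times in vehicle libraries. With melatonin Mcm3 (8.43 ± 0.703) and Mcm5 (8.45 ± 0.571) lay within 1 SD of each other, and with vehicle Mcm5 (5.99 ± 0.277) and Mcm6 (5.74 ± 0.289) did. These values divide by all annotated exon bases, so they depend on the gene model.

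**Figure D3:**
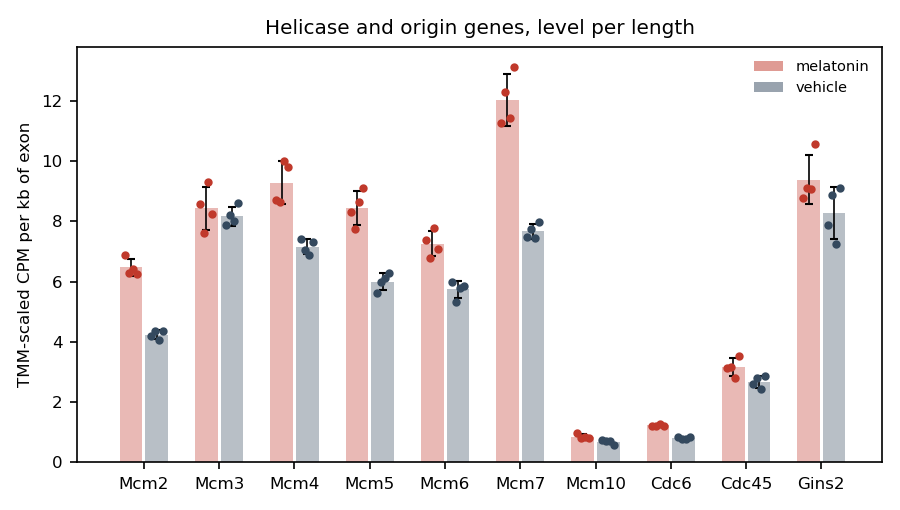
Level per kb of exon (TMM-scaled CPM per kb, linear axis from 0) of the helicase and origin genes, melatonin left of vehicle. Bars are means of 4 libraries, error bars are SD and points are libraries. Mcm7 reaches 12.0 with melatonin against 7.67 with vehicle, while Mcm3 stands at 8.43 with melatonin and 8.17 with vehicle.

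Of the helicase loading and activation genes, Cdc6 (ENSMUSG00000017499, chromosome 11, 98907801 to 98923940 on the plus strand), which loads the MCM ring at origins, was at 6.39, 6.31, 6.63 and 6.36 CPM in melatonin replicates 1 to 4, against 4.45, 4.14, 4.12 and 4.47 CPM in vehicle replicates 1 to 4. Both groups were tight, and Cdc6 rose by 0.58 ± 0.095 (edgeR adjusted p = 0.001). Mcm10, a firing factor, had no overlap between groups but missed the threshold (0.32 ± 0.12, edgeR adjusted p = 0.055), which it passed with DESeq2 (adjusted p = 0.043), with edgeR on upper-quartile factors or library totals (adjusted p = 0.049 and 0.0088), and without melatonin replicate 4 (edgeR adjusted p = 0.045). Cdc45 and Gins2, parts of the active helicase, overlapped between groups, with changes of 0.24 ± 0.10 and 0.18 ± 0.095 (edgeR adjusted p = 0.094 and 0.17).

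Among the polymerase, clamp and clamp loader genes, 4 of 7 rose. Pcna (ENSMUSG00000027342, chromosome 2, 132249162 to 132253314 on the minus strand), the sliding clamp that holds polymerases on DNA, was at 77.0, 78.7, 76.6 and 88.9 CPM in melatonin replicates 1 to 4, against 57.0, 59.5, 61.7 and 57.3 CPM in vehicle replicates 1 to 4. The groups stood apart, with a change of 0.45 ± 0.068 (edgeR adjusted p = 6.6e-04). Prim1, the small primase subunit that starts each new strand, was at 5.69 ± 0.474 CPM with melatonin and 3.87 ± 0.0578 CPM with vehicle and rose by 0.56 ± 0.11. Pold1, the catalytic subunit of polymerase delta, and Rfc2, a clamp loader subunit, rose by 0.30 ± 0.083 and 0.30 ± 0.082, and Rfc2 missed the threshold without vehicle replicate 1 or 3 (edgeR adjusted p = 0.053 and 0.052).

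The other clamp loader genes, and the catalytic subunit of polymerase alpha, did not pass. Rfc4 was at 4.55, 3.90, 4.98 and 8.77 CPM in melatonin replicates 1 to 4, against 6.04, 5.67, 5.33 and 4.59 CPM in vehicle replicates 1 to 4. Melatonin replicate 4 was the highest of the 8 libraries and the other 3 melatonin libraries lay below 3 of the 4 vehicle ones, and the change of 0.03 ± 0.24 became -0.26 without that library (edgeR adjusted p = 0.16). Rfc3 was at 11.9 ± 1.65 CPM with melatonin and 11.3 ± 0.867 CPM with vehicle (0.06 ± 0.12), and -0.01 without melatonin replicate 4. Pola1, at 4.58 ± 0.599 CPM with melatonin and 3.62 ± 0.821 CPM with vehicle, had a change of 0.34 ± 0.18 (edgeR adjusted p = 0.18), and of 0.20 without vehicle replicate 2.

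Of the 4 flap, ligase and repair genes, 3 rose, with the largest change of the 35. Ung (ENSMUSG00000029591, chromosome 5, 114130386 to 114139323 on the plus strand), the glycosylase that removes uracil from DNA, was at 4.03, 3.50, 3.94 and 4.08 CPM in melatonin replicates 1 to 4, against 1.69, 1.69, 1.69 and 1.91 CPM in vehicle replicates 1 to 4. The lowest melatonin library stood well above the highest vehicle library, a 2.23-fold rise (1.15 ± 0.13, edgeR adjusted p = 8.6e-05). The raw counts behind it were 208, 148, 211 and 152 with melatonin, against 84, 73, 77 and 95 with vehicle. Exo1, a mismatch repair exonuclease gene, rose by 0.44 ± 0.12 and Lig1, the ligase that seals Okazaki fragments, by 0.28 ± 0.094 (edgeR adjusted p = 0.015 and 0.04). Lig1 was the called member closest to the threshold, and leaving out any 1 library other than vehicle replicate 3 or melatonin replicate 4 took it past 0.05 (edgeR adjusted p = 0.052 to 0.097). Fen1, the flap endonuclease of the lagging strand, had no overlap between groups and a change of 0.23 ± 0.088 (edgeR adjusted p = 0.064).

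Of the 3 nucleotide supply genes, 1 rose. Rrm2 (ENSMUSG00000020649, chromosome 12, 24708241 to 24714146 on the plus strand), the cell cycle-controlled subunit of ribonucleotide reductase, was at 91.9, 81.6, 89.7 and 127 CPM in melatonin replicates 1 to 4, against 62.4, 70.1, 64.2 and 68.0 CPM in vehicle replicates 1 to 4. It rose by 0.56 ± 0.13 (edgeR adjusted p = 0.0063), and by 0.42 without melatonin replicate 4, its highest library. Its partner Rrm1, the large subunit, was at 108 ± 4.65 CPM with melatonin and 100.5 ± 4.04 CPM with vehicle, with overlap between groups and a change of 0.10 ± 0.059 (edgeR adjusted p = 0.2). Tyms, thymidylate synthase, was the 1 member with a fitted value below 0, at 17.5 ± 1.31 CPM with melatonin and 18.6 ± 1.61 CPM with vehicle (-0.09 ± 0.092, edgeR adjusted p = 0.47), and with library totals in place of TMM factors its value was 0.06.

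Of the chromatin genes, 3 of 5 rose. Chaf1b (ENSMUSG00000022945, chromosome 16, 93883901 to 93906115 on the plus strand), a subunit of the chromatin assembly factor that places histones behind the fork, was at 12.5, 12.2, 11.4 and 13.8 CPM in melatonin replicates 1 to 4, against 6.76, 7.32, 8.79 and 7.48 CPM in vehicle replicates 1 to 4. No library of one group reached the other, and Chaf1b rose by 0.71 ± 0.11 (edgeR adjusted p = 6.9e-04). Slbp, which binds the stem-loop of histone mRNAs, was at 20.9 ± 2.85 CPM with melatonin and 15.4 ± 0.485 CPM with vehicle (0.44 ± 0.10, edgeR adjusted p = 0.0076). Cdca7, which acts with HELLS in nucleosome remodelling, rose by 0.66 ± 0.17 (edgeR adjusted p = 0.013), while Hells itself did not pass (0.21 ± 0.17, edgeR adjusted p = 0.36), and nor did Uhrf1, which guides maintenance methylation (0.15 ± 0.080, edgeR adjusted p = 0.18). In Hells the highest of the 8 libraries was vehicle replicate 1, at 5.23 CPM, and without it the change was 0.40.

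Of the 3 fork and checkpoint genes, 2 rose. Dtl (ENSMUSG00000037474, chromosome 1, 191537356 to 191575544 on the minus strand), which directs PCNA-coupled destruction of the licensing factor CDT1, was at 7.90, 7.87, 7.80 and 7.03 CPM in melatonin replicates 1 to 4, against 4.69, 4.70, 3.95 and 4.69 CPM in vehicle replicates 1 to 4. It rose by 0.76 ± 0.10 (edgeR adjusted p = 3.4e-04), the second largest change of the 35. Clspn, the mediator between stalled forks and the CHK1 kinase, was at 8.73 ± 1.19 CPM with melatonin and 6.15 ± 0.394 CPM with vehicle and rose by 0.51 ± 0.12 (edgeR adjusted p = 0.008). Tipin, a fork protection gene, was at 12.2 ± 0.891 CPM with melatonin and 12.2 ± 0.880 CPM with vehicle (0.00 ± 0.093, edgeR adjusted p = 1.0), and its libraries overlapped.

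Of the 3 genes of S phase entry, 1 rose. Ccne1, cyclin E1, was at 29.5, 29.4, 26.7 and 37.0 CPM in melatonin replicates 1 to 4, against 22.9, 26.6, 24.4 and 24.2 CPM in vehicle replicates 1 to 4. The groups did not overlap by a narrow margin, and Ccne1 rose by 0.32 ± 0.11 (edgeR adjusted p = 0.038), a call lost without vehicle replicate 1, 3 or 4 or melatonin replicate 1 or 2 (edgeR adjusted p = 0.055 to 0.1). Ccne2, cyclin E2, was at 4.21 ± 0.178 CPM with melatonin and 3.14 ± 0.800 CPM with vehicle (0.42 ± 0.18, edgeR adjusted p = 0.1), with all melatonin libraries above the vehicle ones, and its change was 0.27 without vehicle replicate 3. E2f8, an E2F family repressor of these same genes, had a change of 0.23 ± 0.13 (edgeR adjusted p = 0.21).

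Position bears on how cleanly some members were counted. Exons of 10 members overlap an exon of another gene, among them Mcm7, Rfc2, Lig1 and Slbp, which rose. The longest overlaps were 2758 bases of Gins2 with Gse1 and 1909 bases of Fen1 with Gm10143. The use of strand in counting is not given in the sources used here, so reads of the partners cannot be told apart there. The 10 overlapping genes that were tested included 2 that rose, Ints8 beside Ccne2 (0.20 ± 0.069) and the noncoding gene Gm2788 beside E2f8 (1.79 ± 0.47, at 0.448 CPM with melatonin and 0.125 CPM with vehicle). Genes that start within 1000 bases of a member on the other strand were also measured. Of 6 such divergent neighbours tested, 1 rose, Ints7 beside Dtl (32.3 ± 4.64 CPM with melatonin and 24.2 ± 2.16 CPM with vehicle, 0.42 ± 0.12, edgeR adjusted p = 0.018), with overlap between groups. Prkdc beside Mcm4 (0.19 ± 0.14), Ap4m1 beside Mcm7 (0.19 ± 0.087), Ufd1 beside Cdc45 (-0.12 ± 0.086), Tmem258 beside Fen1 (-0.15 ± 0.12) and Gm10614 beside Gins2 (0.19 ± 0.48) did not pass. AV099323 beside Pcna was below the count filter. Of all tested genes 18.1% were called higher, so these few rises among overlapping and divergent genes are not a result about position.

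Genes of the same processes outside the 35 were read from fixed lists, named where they had the smallest p in each direction. Of 42 other replication genes, 13 rose (31% of the list) and 0 fell, with a median of 0.28 (0 fell by DESeq2 and limma-voom, and 0 at an unadjusted edgeR p under 0.05). Rfc5, the clamp loader subunit beside Rfc2 to Rfc4, rose by 0.69 ± 0.091, Chtf18, of an alternative clamp loader, by 0.59 ± 0.097, and Cdt1, the licensing factor, by 0.50 ± 0.086 (edgeR adjusted p = 2.9e-04, 0.0011 and 0.0014). Gmnn, the inhibitor of CDT1, was at 4.96 ± 1.16 CPM with melatonin and 3.93 ± 0.516 CPM with vehicle (0.34 ± 0.18, edgeR adjusted p = 0.17). Of 24 genes of replication-coupled repair, 13 rose (54.2%) and 1 fell, median 0.39. The Fanconi gene Fanca (0.72 ± 0.12), the mismatch repair gene Msh6 (0.40 ± 0.064) and the BRCA1 partner gene Bard1 (0.66 ± 0.12) rose with the smallest p, and Usp1, the deubiquitinase of that Fanconi pathway, fell (-0.32 ± 0.095, edgeR adjusted p = 0.026), a call lost without melatonin replicate 1, 2 or 4 or vehicle replicate 1, 3 or 4.

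Of 18 genes of nucleotide supply outside the members, 7 rose (38.9%) and 0 fell, median 0.24, with 1 lower at an unadjusted edgeR p under 0.05 and by DESeq2 and limma-voom (Samhd1, a dNTP hydrolase gene named after its values were seen, -0.80 ± 0.29, edgeR adjusted p = 0.061). Shmt1, of the folate cycle that feeds thymidylate, rose by 0.71 ± 0.12, the purine synthesis gene Paics by 0.33 ± 0.058 and the dCTP pyrophosphatase gene Dctpp1 by 0.61 ± 0.12. The thymidine kinase gene Tk1 did not pass (0.22 ± 0.13, edgeR adjusted p = 0.22). Of 12 chromatin assembly genes, 5 rose (41.7%) and 0 fell, median 0.21 (0 fell by DESeq2 and limma-voom, and 0 at an unadjusted edgeR p under 0.05). The histone chaperone genes Nasp (0.51 ± 0.088) and Asf1b (0.62 ± 0.12) and the partner subunit Chaf1a (0.31 ± 0.087) were those with the smallest p. Leaving out vehicle replicate 1, 2 or 3 reduced the 5 to 3. Dnmt1, the maintenance methyltransferase, had 0.15 ± 0.076 (edgeR adjusted p = 0.17).

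Genes of the later cycle were read in the same way. In a list of 28 G2 and M phase genes 10 rose (35.7%) and 0 fell (0 too by limma-voom and DESeq2, and 0 at an edgeR p under 0.05 before adjustment), with a median of 0.22, and 6 rose without vehicle replicate 2 or 3. Ccnb2, cyclin B2, rose by 0.57 ± 0.12, Ccna2, cyclin A2, by 0.41 ± 0.088, Cdc20, an activator of the anaphase-promoting complex, by 0.38 ± 0.084 and the mitotic kinase gene Cdk1 by 0.46 ± 0.14. Top2a and the proliferation marker Mki67 did not pass, at 48.3 ± 2.99 CPM with melatonin and 41.4 ± 4.17 CPM with vehicle (0.22 ± 0.086) and at 21.1 ± 5.17 CPM with melatonin and 17.7 ± 4.22 CPM with vehicle (0.25 ± 0.21). Whether the replication and mitotic lists differ was not tested.

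**Figure D4:**
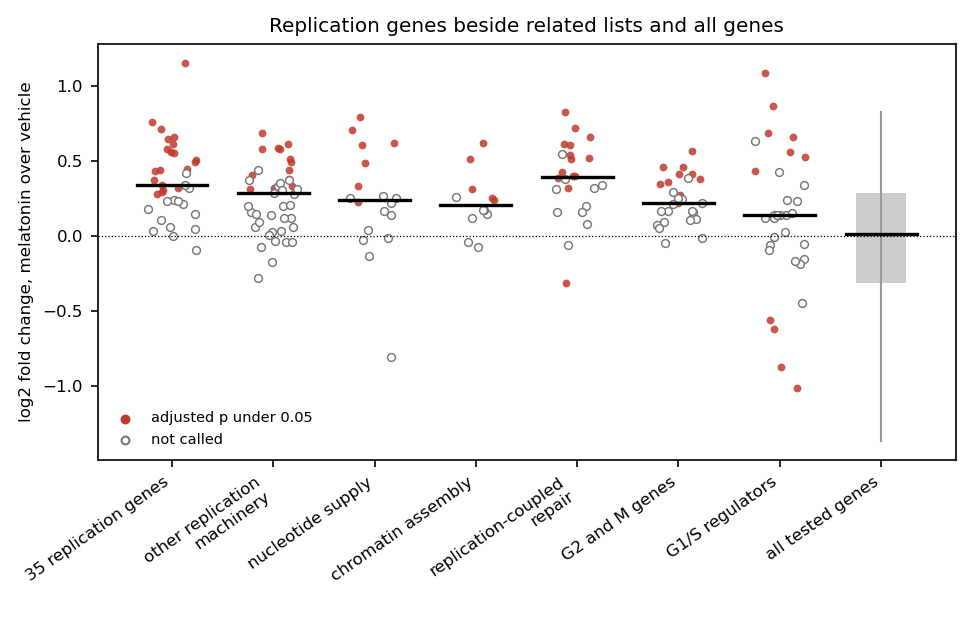
Log2 fold change, melatonin over vehicle, for each gene of the replication list, 6 related lists and all tested genes, with filled points for an adjusted p under 0.05 and a black line at each median. The grey box spans the quartiles of all tested genes (-0.313 to 0.289) and its line the 5th to 95th percentile. The medians are 0.34 for the 35 replication genes, 0.22 for G2 and M genes and 0.01 for all genes.

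Of 32 G1/S regulators upstream of S phase, 7 rose and 4 fell, median 0.14. These are 21.9% higher and 12.5% lower, near the 18.1% and 18.5% of all tested genes, so the counts are not a result about the list, and 11 rose without melatonin replicate 4. E2f1, an activator of the replication genes, was at 69.6, 73.3, 72.1 and 73.0 CPM in melatonin replicates 1 to 4, against 51.5, 56.6, 54.4 and 51.1 CPM in vehicle replicates 1 to 4. Its groups did not overlap (0.43 ± 0.060, edgeR adjusted p = 3.8e-04). Cdkn2c and Cdkn2b, inhibitors of the cyclin D kinases, rose by 0.87 ± 0.067 and 0.66 ± 0.061. Ccnd1, cyclin D1, fell to 209 ± 21.6 CPM with melatonin, against 422 ± 40.5 CPM with vehicle (-1.02 ± 0.094). Cdkn1a, the p21 inhibitor, fell as well (509 ± 19.3 CPM with melatonin and 783 ± 45.2 CPM with vehicle, -0.62 ± 0.064), as did the cyclin D kinase gene Cdk6 (-0.88 ± 0.097) and Lin9 (-0.56 ± 0.14), a subunit of the DREAM and MuvB complexes.

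Scaling sets part of these values. The median log2 fold change of all tested genes was 0.01 with TMM factors and 0.17 with library totals alone, and with totals alone 28 of the 35 members rose, 0 fell and their median was 0.495 (all genes: 5099 higher and 2237 lower). Library totals were 35584931 to 49769873 counts with melatonin and 45682034 to 52401153 with vehicle. Precision differs among members with their counts and with the spread of their replicates. Standard errors of the 35 ran from 0.059 (Rrm1) to 0.24 (Rfc4). They did not follow counts alone, since Rfc4 had 165 to 327 counts per library. Ung had fewer, 73 to 211, and a standard error of 0.13.

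Markers of FAPs and of other cell types that muscle cultures can hold were measured in the same libraries. Beside the calls below, 18.1% of all tested genes were called higher and 18.5% lower. The few calls in lists other than those of FAPs and adipocytes are therefore not a result about those cell types. The FAP marker Pdgfra was at 465 ± 74.0 CPM with melatonin and 569.6 ± 52.2 CPM with vehicle, and 6 of 10 FAP markers fell and 0 rose (0 also at an unadjusted edgeR p under 0.05 and by DESeq2 and limma-voom). FAP markers summed to 7344 to 8314 CPM with melatonin and 14655 to 17346 CPM with vehicle, with no overlap between groups. The ratio of the mean sums, melatonin over vehicle, was 0.50, while the median fold of the 10 markers was 0.74. A sum gives most weight to the most abundant genes of its list and does not measure how many cells of a type were present. Of 6 adipocyte markers 5 rose, with summed levels of 678 to 854 CPM with melatonin and 114 to 121 CPM with vehicle. Macrophage markers (3 of 9 tested rose, 1 fell) summed to 329 to 623 CPM with melatonin, lowest in replicate 4, and 473 to 725 CPM with vehicle, with Cx3cr1 near 0 (2 to 16 counts per library). Myogenic markers (1 of 8 rose, 1 fell, with Ckm at 0.267 CPM with melatonin and 0.444 CPM with vehicle) summed to 408 to 642 CPM with melatonin and 551 to 753 CPM with vehicle. That sum also counts Vcam1 and was not split by gene, so it does not measure how many myogenic cells were present. Pax7 and Myf5, like the adipocyte gene Lep, were looked up but were not among the genes of the deposited count table. Endothelial markers (1 of 9 rose, 1 fell) summed to 50.6 to 59.4 CPM with melatonin and 34.7 to 43.3 CPM with vehicle. Mural markers (2 of 8 rose, 1 fell) summed to 116 to 198 CPM with melatonin and 139 to 181 CPM with vehicle. Glial markers (2 of 6 rose and 0 fell by edgeR, with 1 lower at an unadjusted p under 0.05, 1 lower by DESeq2 and 0 by limma-voom) summed to 63.8 to 97.6 CPM with melatonin and 56.4 to 64.7 CPM with vehicle. Tenocyte markers (1 of 6 rose, 2 fell) summed to 2994 to 3309 CPM with melatonin and 3369 to 4382 CPM with vehicle. Genes of the mitochondrial genome took 2.09% to 2.44% of melatonin counts and 1.05% to 1.3% of vehicle counts. In melatonin replicate 4, where the member sum was highest, the summed markers of FAPs, adipocytes, macrophages, myogenic, endothelial, mural and glial cells were each the lowest of the 4 melatonin libraries, and that of tenocytes was the highest. The part of these cells and of RNA composition in the rise of the replication genes was not tested.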

How the data were processed

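Illumina libraries made from total RNA of 8 FAP cultures were available as one table of whole-number counts per Ensembl gene, deposited by the authors and not normalized. Per the submitters' processing notes, the build was mm10 and the tools named, without their roles, were DESeq2 1.12.4, StringTie 1.3.3b, bedtools 2.26.0, HISAT2 2.0, Trimmomatic 0.36 and FastQC 0.11.2. The sources used here do not state the counter, its annotation or whether it used strand. The smallest total of a gene over the 8 libraries was 11 counts. The columns of the non-melatonin group were read as vehicle, the other group in the labels.

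Symbols came from GENCODE M21 (GRCm38) and matched 20720 of 20781 IDs. Counts were filtered with filterByExpr, scaled by TMM (factors 1.048 to 1.077 with melatonin and 0.916 to 0.974 with vehicle) and tested with the robust quasi-likelihood F test of edgeR 4.0.16 in R 4.3.3, with group as the only term, over all 16565 genes, with Benjamini-Hochberg adjustment at 0.05. The standard error is the log2 fold change divided by the square root of F. The edgeR script was tested on simulated counts. Alternatives were RLE factors, upper-quartile factors, library totals, no filter, at least 1 CPM in at least 4 libraries, DESeq2 1.42.0, limma-voom (limma 3.58.1), a replicate block, an adjusted p under 0.01 and leaving out each library. Replicates of a group differed beyond counting noise (chi-square per gene 23.5 to 74.4), so none was counted as a repeat deposit. P-values measure the spread between these cultures, which may share animals. The members, lists and tests were chosen with earlier results of these data known. All 35 members are named. From each related list the 3 genes with the smallest edgeR p in each direction are named, with a fixed set of cell cycle genes, of which 1 is not reported here. Promoters are RefSeq sequences of GRCm38.p6.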

Additional observations from a re-analysis of the deposited data

Results flagged for a closer look

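A library far from the other 3 of its group was found in 8 of 70 groups (35 genes in 2 groups), where chance gives about 1 in 20. Pcna, the sliding clamp, was at 88.9 CPM in melatonin replicate 4, above the other melatonin libraries. Mcm10, a firing factor, was at 7.45 CPM in melatonin replicate 1, also above the others. Dtl, the CDT1 destruction adaptor, was low in 1 library of each group, at 7.03 CPM in melatonin replicate 4 and 3.95 CPM in vehicle replicate 3. Among vehicle libraries, Exo1 was high in replicate 2 (3.31 CPM), Ung high in replicate 4 (1.91 CPM), Hells high in replicate 1 (5.23 CPM) and Clspn high in replicate 1 (6.74 CPM). For Pcna, Mcm10, Dtl, Exo1, Ung and Clspn, the melatonin libraries stayed above all vehicle libraries with these values included. For Hells the groups overlapped.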

How the results depend on the processing

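Of the 20 members that rose, 15 were called under each of the 16 alternatives that keep the 0.05 threshold, and the other 5 were Pold1, Rfc2, Lig1, Exo1 and Ccne1. Members called higher numbered 17 to 21 when 1 library was left out, 14 at an adjusted p under 0.01, 21 with DESeq2 and 20 with limma-voom, and 0 were lower in each. Library totals alone moved the member median to 0.495. Over all genes, calls of higher genes were 5099 with library totals, 1754 at an adjusted p under 0.01 and 2403 to 3284 with 1 library left out, and lower genes were 2671 to 3282 with 1 left out.

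A sign change was seen in 4 members that were not called. Rfc3 ranged from -0.0131 (without melatonin replicate 4) to 0.143 with 1 library left out. Rfc4 ranged from -0.262 to 0.179 with 1 library left out, and was -0.0291 with the replicate block and -0.0499 with limma-voom. Tyms was 0.0612 with library totals. Tipin was -0.008 with RLE factors, -0.0122 with the CPM filter, -0.0104 with DESeq2, -0.0084 with limma-voom and -0.0397 to 0.0421 with 1 library left out, below 0 without vehicle replicate 2, vehicle replicate 3 or melatonin replicate 4. The causes were not tested.

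With library totals, higher calls were 22 among other replication genes, 12 in nucleotide supply, 9 in chromatin assembly, 12 among G1/S regulators and 17 in G2 and M, and lower calls in repair were 0. With 1 library left out, higher calls ranged from 10 to 14, 5 to 8, 3 to 5, 7 to 11 and 6 to 9 in those 5 lists and from 9 to 12 in repair. Lower calls ranged from 0 to 1 in nucleotide supply and in repair and from 4 to 5 among G1/S regulators. DESeq2 and limma-voom each called 1 gene lower in nucleotide supply.

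Replicate numbers were not taken as pairs, since the deviations of same-numbered libraries correlated at 0.0354, -0.0461, -0.0292 and 0.00434. With the replicate block, 15 members were higher, chromatin assembly had 2 higher and repair 0 lower. Depth limits the members with few counts, such as Ung with 73 in vehicle replicate 2.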

Other observations

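Canonical replication-dependent histone genes, whose mRNAs are made in S phase and bound by SLBP, are a set of close copies in which reads can be shared, so single values are uncertain. The list read here was added after member values were seen, as every gene whose symbol starts with Hist1h, Hist2h, Hist3h or Hist4h. Its genes were not checked for replication dependence, and it includes others, such as the pseudogene Hist3h2bb-ps. Of 66 in the table, 54 were tested, 11 rose and 0 fell by edgeR (11 and 0 by DESeq2, 12 and 0 by limma-voom, and 13 and 0 at an unadjusted edgeR p under 0.05). The 11 are 20.4% of those tested, near the 18.1% of all tested genes called higher, so the count of rises is not a result about the list. The 0 that fell stand beside 18.5% of all tested genes called lower. The fitted difference was above 0 for 43 of the 54, beside 51.3% of all tested genes. The list had a median log2 fold change of 0.27 beside 0.01 over all tested genes. Those with the smallest p were Hist1h3d (6.17 CPM with melatonin and 2.87 CPM with vehicle, 1.10 ± 0.13), Hist3h2a (36.8 CPM with melatonin and 26.7 CPM with vehicle, 0.46 ± 0.090) and Hist2h3c2 (37.9 CPM with melatonin and 28.9 CPM with vehicle, 0.39 ± 0.076). Summed levels were 738 to 911 CPM with melatonin, highest in replicate 4, and 663 to 756 CPM with vehicle, with overlap between groups. Most of these mRNAs lack a poly(A) tail, and whether the libraries were poly(A)-selected is not given in the sources used here.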
